A study of Homo sapiens with 2 samples.

Results

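The genes described here are 45 human ATP-binding cassette (ABC) transporter genes of subfamilies A to G, taken by symbol from the 37364 genes of the table. The symbol had to read ABC, a letter from A to G and a number. Of 46 such symbols, ABCC13 was left out because RefSeq lists it as a pseudogene. TAP1, TAP2 and CFTR belong to the same superfamily under other names, and their values stand beside those of the members. The RNA came from D407, an established human cell line labelled as adult retinal pigment epithelium (RPE). By the labels' protocols, the cells were grown in serum-supplemented medium and the RNA was sequenced after oligo(dT) enrichment. How complete that enrichment was is not tested here. The clusterin group is 1 library of cells given clusterin, an extracellular chaperone, and the control group is 1 library of D407 cells labelled only as control. The labels describe clusterin being added at near confluence in a viability assay; its dose, its duration and what the control cells received are not given in the sources used here. With 1 library per group no difference has a replicate check, and all intervals below cover counting error only.

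ABC transporters bind and hydrolyse ATP on a pair of nucleotide-binding domains, and most of them use that energy to move a substrate across a membrane. Subfamilies A and C, and part of B, are single long chains that export lipids, bile acids, conjugates and drugs at the cell surface or in lysosome-related organelles. The rest of B, together with D and G, work as dimers of shorter chains in mitochondria, peroxisomes, lysosomes or the plasma membrane. Subfamilies E and F have the ATP-binding domains but no membrane domain, and act on ribosomes. In the RPE, ABC transporters are known for cholesterol efflux and for protecting the retina from drugs, and ABCA4 for clearing retinoids.

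Levels are in RPKM, reads scaled by transcript length and library total, so they can be compared between genes. A gene with a mean of at least 1 RPKM over both libraries is called measured. The libraries held 33177093 reads with clusterin and 38236990 in the control, and whole reads were recovered from the levels of all 33 members above 0. Measured genes numbered 13244, and their median of log2((clusterin RPKM + 1)/(control RPKM + 1)), the log2 difference used throughout, was -0.06. Of 15 RPE markers, 9 were listed at 0, among them RPE65, RLBP1 and LRAT, and 3 were measured (MITF, STRA6 and BEST1), so the label rests on few markers. Of 6 simple epithelial markers 4 were measured, all of them keratins, summing to 1003 RPKM with clusterin and 985 RPKM in the control. The other markers were near or at 0: CDH1 had 4 reads with clusterin and 3 in the control, and EPCAM was listed at 0. Summed markers stood at 0.0540 RPKM with clusterin and 0.0644 RPKM in the control for 5 photoreceptor genes, at 0.975 and 1.01 RPKM for 4 endothelial genes, and at 0.167 and 0.0869 RPKM for 4 leukocyte genes, in the same order of libraries. For 5 fibroblast genes they stood at 72.2 RPKM with clusterin and 74.0 RPKM in the control, but this sum came mostly from LUM and DCN. COL1A1 stood at 0.920 RPKM with clusterin and 1.15 RPKM in the control, and COL3A1 and PDGFRB were under 1 RPKM in both libraries. Their part in the transporter levels was not tested, and in bulk RNA fewer cells of a type cannot be told apart from less RNA per cell.

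Of the 45 members, 22 were measured, 11 lay above 0 but under 1 RPKM, and for 12 the level was 0 in each library. The measured share of 48.9% was close to the 47.7% of all genes listed by symbol. Members on either side of the threshold were well apart: ABCB1, the highest below it, had a mean of 0.563 RPKM, and ABCD4, the lowest above it, had 1.41 RPKM. Measured members rested on 316 to 6706 reads over both libraries. Together the members took 0.0794% of the reads of the clusterin library and 0.0824% of the control.

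**Figure D1:**
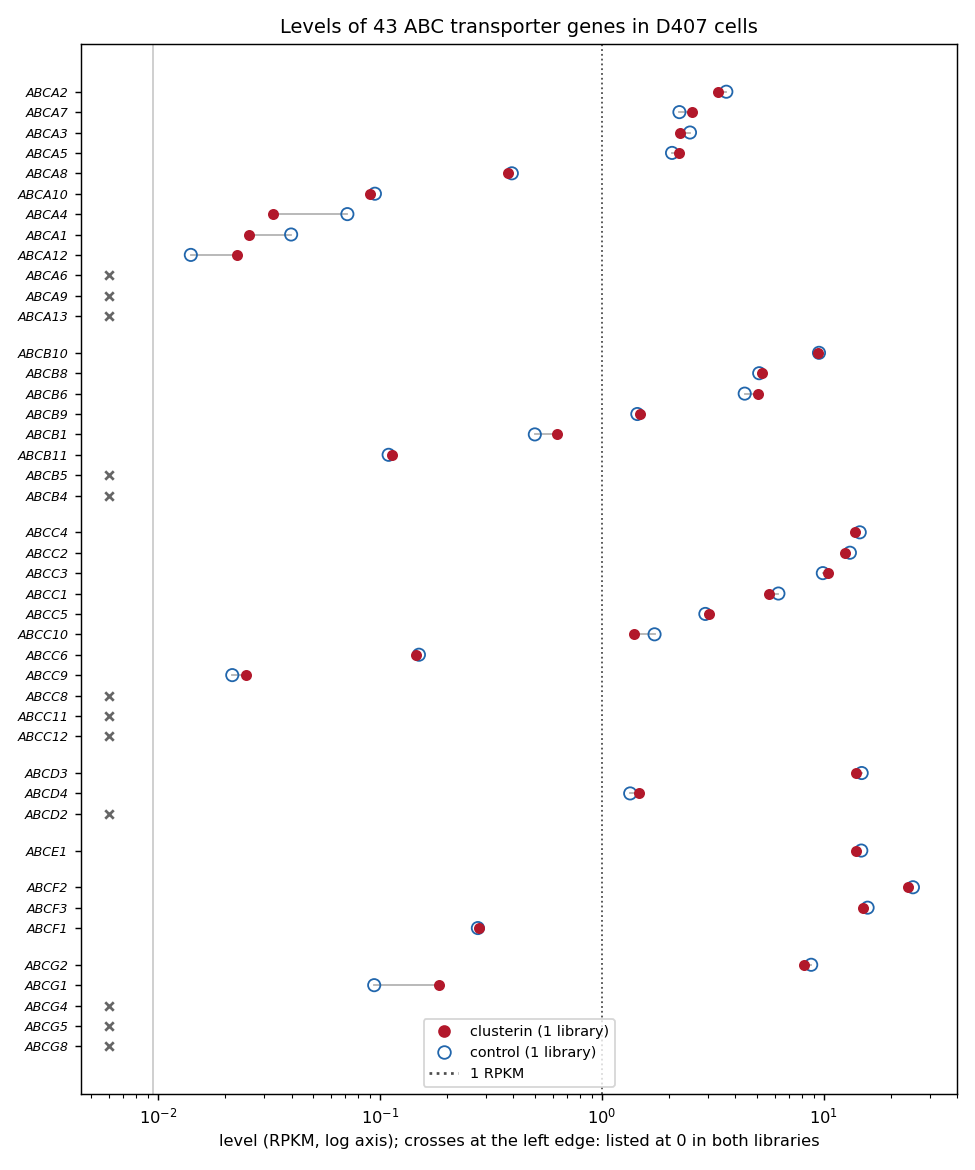
Level of 43 members in RPKM on a log axis, by subfamily, with the clusterin library as filled points and the control library as open points; crosses mark members listed at 0 in both. Measured members lie right of the dotted line at 1 RPKM, and the filled and open points of each of them nearly coincide.

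The highest member in both libraries, ABCF2, has no membrane domain, and neither do the high members ABCF3 and ABCE1. ABCF2, a cytosolic ABCF protein linked to translation (chromosome 7, 151207830 to 151227374, GRCh38), stood at 23.9 RPKM with clusterin and 25.2 RPKM in the control. ABCF3, also of the GCN20-like subfamily, stood at 15.1 RPKM with clusterin and 15.8 RPKM in the control. ABCE1, which splits ribosomes into subunits after termination, stood at 13.9 RPKM with clusterin and 14.8 RPKM in the control. Even ABCF2 ranked below 1862 other genes by mean level. These 3 genes and ABCF1 summed to 53.2 RPKM with clusterin and 56.0 RPKM in the control, which was 29.9% and 30.2% of the summed level of all members in those libraries.

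Transporters that work as dimers in organelles covered a range of levels, and several surface transporters of subfamily C stood above ABCB10, ABCB8 and ABCB6. ABCB10, an inner mitochondrial membrane transporter needed for heme synthesis, stood at 9.41 RPKM with clusterin and 9.51 RPKM in the control. ABCB8, described as part of a mitochondrial potassium channel, stood at 5.25 RPKM with clusterin and 5.12 RPKM in the control. Both were measured well above the threshold. ABCB6, a porphyrin transporter placed in mitochondria or endosomes (chromosome 2, 219209766 to 219218990), had 5.07 RPKM with clusterin and 4.4 RPKM in the control. In the peroxisome, ABCD3, which imports branched-chain acyl-CoA and bile acid precursors, stood at 13.9 RPKM with clusterin and 14.8 RPKM in the control. ABCD2, a peroxisomal importer of very long chain and polyunsaturated acyl-CoA, was listed at 0 in both libraries.

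Lysosome-related members were low but mostly measured, 5 of 6. ABCA2, a lipid transporter of late endosomes and lysosomes, stood at 3.34 RPKM with clusterin and 3.64 RPKM in the control. ABCA3, which loads phospholipid into lamellar bodies of the lung, stood at 2.24 RPKM with clusterin and 2.50 RPKM in the control, and ABCA5 at 2.22 RPKM with clusterin and 2.07 RPKM in the control. ABCB9, a lysosomal peptide transporter, stood at 1.48 RPKM with clusterin and 1.45 RPKM in the control. ABCD4, which with LMBD1 releases cobalamin from lysosomes, stood at 1.47 RPKM with clusterin and 1.34 RPKM in the control. ABCA12, the lipid transporter of skin lamellar granules, had 7 reads with clusterin and 5 in the control.

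Of 21 members placed at the plasma membrane, 8 were measured, and 6 of these were multidrug resistance proteins of subfamily C. ABCC4, which exports cyclic nucleotides and prostaglandins, stood at 13.9 RPKM with clusterin and 14.5 RPKM in the control. ABCC2, an apical exporter of conjugated bilirubin best known in liver, stood at 12.4 RPKM with clusterin and 13.1 RPKM in the control. ABCC3, the basolateral exporter of glucuronides, stood at 10.5 RPKM with clusterin and 9.90 RPKM in the control. ABCC1, the glutathione conjugate exporter first found in drug-resistant cells, stood at 5.64 RPKM with clusterin and 6.24 RPKM in the control. ABCC5, a nucleotide analogue exporter, stood at 3.04 RPKM with clusterin and 2.93 RPKM in the control. ABCC10, a broad-specificity drug exporter (chromosome 6, 43427546 to 43451980) was lower, at 1.40 RPKM with clusterin and 1.73 RPKM in the control. The other measured surface members were ABCG2, the breast cancer resistance protein, at 8.15 RPKM with clusterin and 8.77 RPKM in the control, and ABCA7, a phospholipid transporter linked to Alzheimer's disease, at 2.56 RPKM with clusterin and 2.24 RPKM in the control. ABCA7 lies on chromosome 19, from 1040103 to 1065572.

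The cholesterol exporters and the bile salt pump were near or at 0. ABCA1, which hands cholesterol to apolipoprotein A1, had 9 reads with clusterin and 16 in the control, or 0.0258 RPKM with clusterin and 0.0398 RPKM in the control. ABCG1, which hands cholesterol to HDL, had 22 reads with clusterin and 13 in the control. Its ratio of RPKM, clusterin over control, was 1.95, with a 95% counting interval of 0.940 to 4.21 that included 1. The sterol exporters ABCG4, ABCG5 and ABCG8 were listed at 0. ABCB1, the drug pump P-glycoprotein, stood at 0.626 RPKM with clusterin and 0.499 RPKM in the control, from 98 reads with clusterin and 90 in the control. ABCB11, the bile salt export pump, had 18 reads with clusterin and 20 in the control, and ABCB4, the phospholipid flippase of bile, was listed at 0. ABCA4, the retinoid transporter of photoreceptor discs and RPE, had 8 reads with clusterin and 20 in the control (ratio 0.461, interval 0.176 to 1.09). ABCA8, at 0.379 RPKM with clusterin and 0.393 RPKM in the control, ABCA10, ABCC6 and the sulfonylurea receptor ABCC9 were the remaining members above 0 in subfamilies A and C, with at most 86 reads in a library. ABCC6, mutated in pseudoxanthoma elasticum, has near-identical pseudogene copies, so its level is uncertain. The other members listed at 0 were ABCA6, ABCA9, ABCA13, ABCB5, ABCC8, ABCC11 and ABCC12. RPS18, a ribosomal protein gene used by every cell, was listed at 0 too. It lies 2.70 Mb from ABCF1, in a stretch of chromosome 6 described below where few genes were measured. None of the members listed at 0 lies there, so RPS18 says little about them. No gene with recovered reads had fewer than 6 over both libraries, so 0 is not read as absence.

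By subfamily, the measured share was 4 of 12 in A, 5 of 9 in B, 6 of 11 in C, 3 of 4 in D, 1 of 1 in E, 2 of 3 in F and 1 of 5 in G. By architecture it was 10 of 27 single-chain transporters, 9 of 14 that work as dimers, and 3 of 4 without a membrane domain. Subfamily C had the highest summed level, 47.0 RPKM with clusterin and 48.6 RPKM in the control. Subfamily F followed with 39.3 RPKM with clusterin and 41.2 RPKM in the control, although it has only 3 genes. Subfamily B summed to 36.4 RPKM with clusterin and 37.4 RPKM in the control, and D to 22 RPKM with clusterin and 23.2 RPKM in the control. Subfamily A, the largest by number of genes, summed to 10.9 RPKM with clusterin and 11.1 RPKM in the control, and G to 8.33 RPKM with clusterin and 8.87 RPKM in the control. The order of the 7 sums was the same in both libraries. Each sum was lower with clusterin, but without its highest member A stood at 7.58 RPKM with clusterin and 7.42 RPKM in the control, B at 21.9 RPKM with clusterin and 21.1 RPKM in the control, and G at 0.184 RPKM with clusterin and 0.0943 RPKM in the control.

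**Figure D2:**
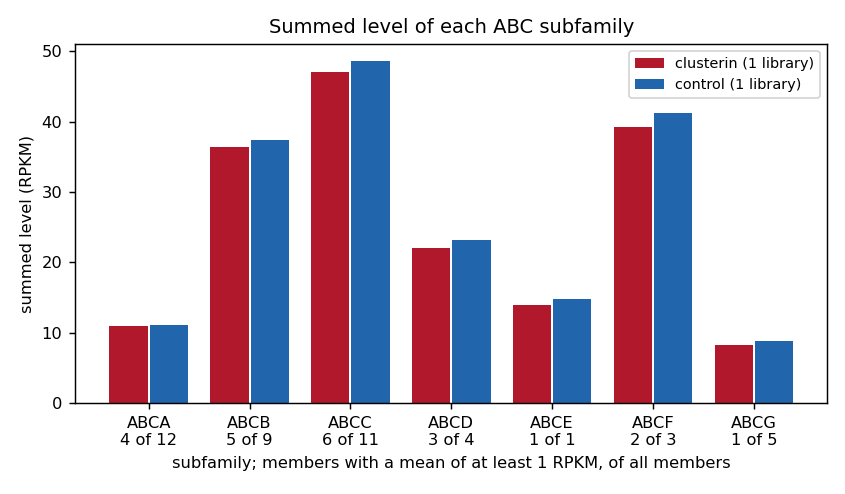
Summed level of each subfamily in RPKM, with the clusterin library as the left bar and the control library as the right bar of each pair; there are no error bars because each group is 1 library. Subfamily C is highest at 47.0 RPKM with clusterin and 48.6 RPKM in the control, and every left bar is slightly lower than its neighbour.

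Some members that lie side by side on a chromosome had unlike levels, while the neighbours ABCC12 and ABCC11, ABCA9 and ABCA6, and ABCG5 and ABCG8 were listed at 0 alike. On chromosome 17, ABCA8, ABCA9, ABCA6, ABCA10 and ABCA5 follow each other, and only ABCA5 was measured. On chromosome 16, ABCC1 was measured, and ABCC6, 6491 bases further on, stood at 0.146 RPKM with clusterin and 0.150 RPKM in the control. ABCD3 and ABCA4 are 296937 bases apart on chromosome 1. Some members overlap genes on the opposite strand, and the strand setting of the counting is not given. ABCB9 shares 423 bases with OGFOD2, which stood higher, at 4.36 RPKM with clusterin and 5.24 RPKM in the control. ABCE1 shares 538 bases with ANAPC10, at 5.48 RPKM with clusterin and 5.37 RPKM in the control, and ABCC10 shares 1629 bases with DLK2, at 0.786 RPKM with clusterin and 0.617 RPKM in the control.

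Promoter windows from RefSeq (GRCh38.p14, 250 bases before to 50 bases after the gene start) were available for 35 members, of which 23 had a single listed start. The median number of CG dinucleotides in the 300-base window was 29 for the 14 measured members among them and 8 for the 9 others, of which 5 were listed at 0, beside 12 for all 22114 symbols with a single listed start. The GC box (GGGCGG, or CCGCCC for the opposite strand) occurred in 11 of the 14 and in 3 of the 9, beside 43.0% of all such windows. The TATA motif (TATAAA, or TTTATA for the opposite strand) occurred in 2 of the 14 and in 2 of the 9, beside 12.7% of all. The motifs do not overlap each other, and a match describes letters only; which start D407 cells use was not measured. The windows below show both ends of this range, each 5′ to 3′ on the gene's strand, with GC box and TATA matches in capitals. ABCF2 (chr7:151227156-151227455, minus strand) and ABCD3 (chr1:94418139-94418438, plus strand) are high members with 29 and 42 CG dinucleotides. ABCB11 (chr2:169031275-169031574, minus strand) and ABCG5 (chr2:43838790-43839089, minus strand), with 3 and 9, were barely above 0 or listed at 0. ABCC2 (chr10:99782390-99782689, plus strand) is the exception, since it was among the highest members and its window holds 1 CG dinucleotide and no GC box. Its 1 TATA match lies near the 5′ end of the window, far from the listed start. The deposited position of ABCB11 matched RefSeq at neither end, so its window and its level may rest on different gene starts.
ABCF2: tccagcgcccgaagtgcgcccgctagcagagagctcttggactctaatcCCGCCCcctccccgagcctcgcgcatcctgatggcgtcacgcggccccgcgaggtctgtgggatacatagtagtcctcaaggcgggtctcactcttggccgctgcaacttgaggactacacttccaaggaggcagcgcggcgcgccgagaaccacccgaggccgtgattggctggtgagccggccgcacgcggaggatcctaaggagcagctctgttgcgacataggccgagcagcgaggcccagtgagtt
ABCD3: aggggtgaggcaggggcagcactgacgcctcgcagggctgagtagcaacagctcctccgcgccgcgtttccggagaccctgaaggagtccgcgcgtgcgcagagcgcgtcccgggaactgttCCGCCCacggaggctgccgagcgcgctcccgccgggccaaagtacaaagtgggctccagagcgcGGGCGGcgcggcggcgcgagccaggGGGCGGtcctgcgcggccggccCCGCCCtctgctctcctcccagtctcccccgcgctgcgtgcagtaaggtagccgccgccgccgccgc
ABCC2: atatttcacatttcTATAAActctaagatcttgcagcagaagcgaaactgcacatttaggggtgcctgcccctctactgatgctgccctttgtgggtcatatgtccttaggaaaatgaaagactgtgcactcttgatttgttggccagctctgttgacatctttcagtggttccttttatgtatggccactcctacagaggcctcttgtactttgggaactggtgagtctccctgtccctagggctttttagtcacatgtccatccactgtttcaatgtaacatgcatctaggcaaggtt
ABCB11: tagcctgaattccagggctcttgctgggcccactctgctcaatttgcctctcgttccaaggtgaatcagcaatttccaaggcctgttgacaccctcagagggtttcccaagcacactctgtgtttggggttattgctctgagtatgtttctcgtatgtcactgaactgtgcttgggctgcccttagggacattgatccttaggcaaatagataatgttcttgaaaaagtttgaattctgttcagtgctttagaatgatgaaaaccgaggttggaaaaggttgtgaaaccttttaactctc
ABCG5: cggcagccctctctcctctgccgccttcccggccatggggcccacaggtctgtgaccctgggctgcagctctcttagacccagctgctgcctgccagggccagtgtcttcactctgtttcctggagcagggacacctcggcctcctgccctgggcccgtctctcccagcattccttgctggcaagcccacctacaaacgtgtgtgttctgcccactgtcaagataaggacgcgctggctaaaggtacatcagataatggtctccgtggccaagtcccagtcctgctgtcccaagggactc
All 5 listed-at-0 members with a single listed start had windows with 1 to 9 CG dinucleotides and no GC box. Among the members above 0 but under 1 RPKM, ABCF1 (37 CG dinucleotides), ABCA1 (23) and ABCC9 (18) had a GC box in the window. The level of ABCF1, described below, is not comparable with those of other genes. Its place among the 9 others is therefore uncertain.

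**Figure D3:**
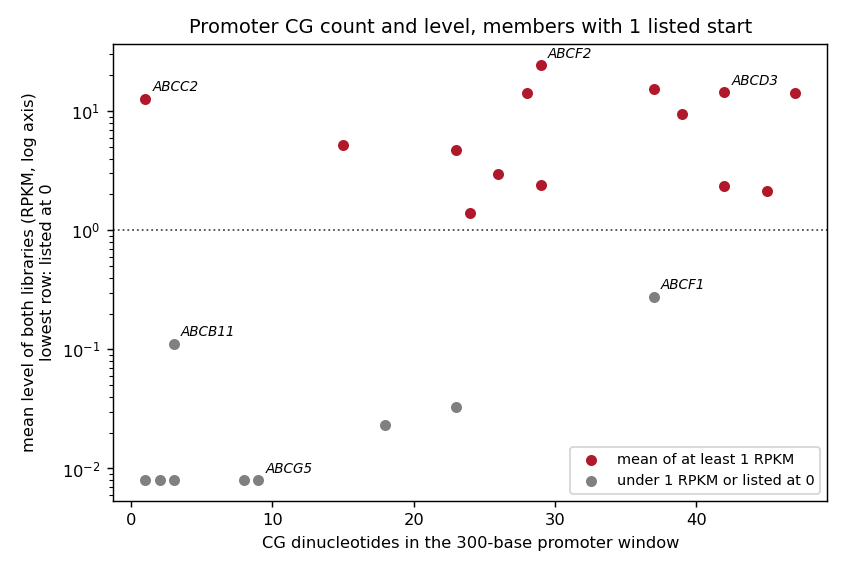
Number of CG dinucleotides in the promoter window (x axis) against the mean level of both libraries in RPKM on a log axis (y axis), 1 point per member with a single listed start. The measured members lie at 15 or more except ABCC2, at 1, and members listed at 0, in the lowest row, lie between 1 and 9.

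ABCF1 stood apart from its subfamily. It is an initiation-promoting ABCF protein that binds eIF2 (chromosome 6, 30571393 to 30591532), and was listed at 0.278 RPKM with clusterin and 0.276 RPKM in the control, against at least 15.1 RPKM for ABCF2 and ABCF3 in either library. Its reads were not as scarce as its level, at 215 with clusterin and 246 in the control. These reads and the deposited levels give a scaling length of 23272 bases, longer than the 20140 bases the gene itself spans. ABCF1 was the only 1 of 33 members with such a length; the others had 2528 to 10489 bases. The peptide transporter subunit TAP1, on the same chromosome arm, had a scaling length of 23071 bases against a span of 8763 bases, with 150 reads with clusterin and 211 in the control. Both genes lie in the major histocompatibility complex. Within 1 Mb of ABCF1, 4 of 73 other symbol-listed genes were measured, and the length used exceeded the gene's span for 51 of 64 with recovered reads. Away from this stretch of chromosome 6, 49.4% of 21746 genes were measured, and the length exceeded the span for 66 of 14204. The levels of ABCF1 and TAP1 are therefore not comparable with those of other genes, while the ratio between the libraries is free of the length. TAP2, the other subunit, stood at 0.386 RPKM with clusterin and 0.467 RPKM in the control, and its reads and length were not recovered. For ABCF1 that ratio was 1.01 (interval 0.835 to 1.21). Whether reads of these genes were also lost in alignment was not tested.

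**Figure D4:**
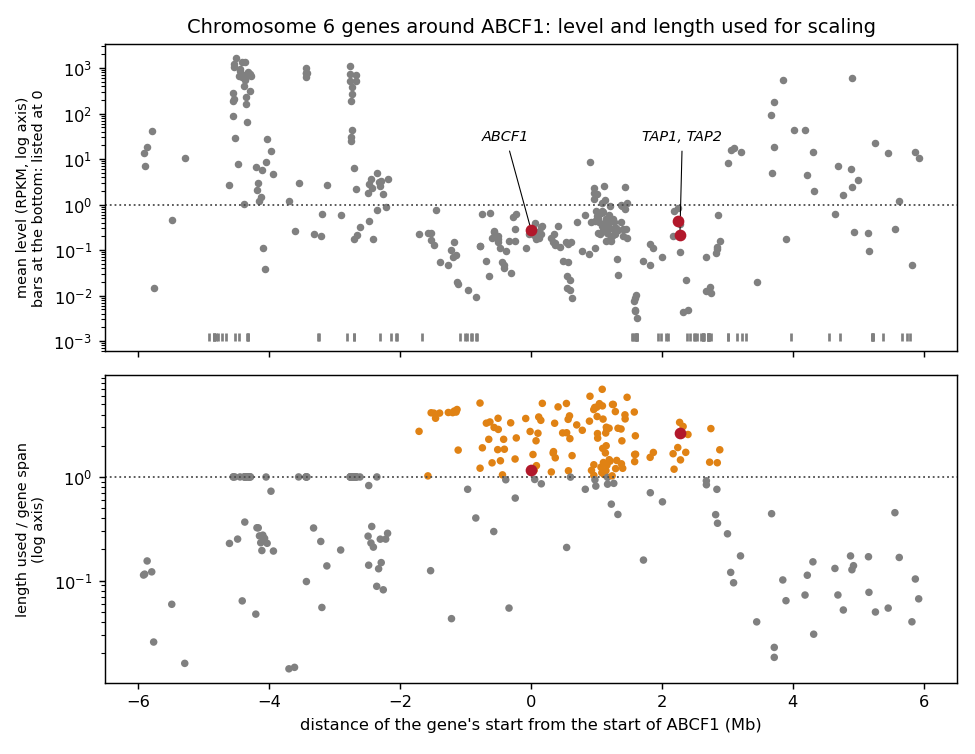
Mean level in RPKM on a log axis (top) and the scaling length divided by the gene's span on a log axis (bottom) for chromosome 6 genes, by distance in Mb of their start from that of ABCF1; red points are ABCF1, TAP1 and, at the top only, TAP2. Levels around ABCF1 are mostly under the dotted line at 1 RPKM, where the lengths used (orange) exceed the span. Both are in the usual range beyond 3 Mb on either side. The stretch is uneven, with 23 of 55 genes measured at 1 to 3 Mb below ABCF1 and 6 of 103 at 1 to 3 Mb above.

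The labels set clusterin-treated against control cells, with long noncoding RNA as the stated interest. None of the 22 measured members was past 1.5-fold in either direction on the log2(RPKM + 1) scale, beside 0.868% of all measured genes (0.37% higher and 0.498% lower with clusterin), and none was past 2-fold, beside 0.219%. All 22 lay within 0.2 of 0. Below 0 were 14 of the 22, beside 70.2% of all measured genes, and the median of the members was -0.07, against -0.06 for all measured genes. Of the 22 members, 10 lay above that all-gene median and 12 below it. The scale understates the change of low genes, but without a pseudocount, too, 0 of 26 members with at least 50 reads were past 1.5-fold, beside 3.65% of all such genes.

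Reads give the counting precision of each ratio. The 95% counting interval of the RPKM ratio left out 1 for 7 of the 22 measured members, beside 27% of measured genes with recovered reads. It lay above 1 for 2 members, beside 3.88%, and below 1 for 5 (among them ABCC10, ABCC1, ABCD3 and ABCF2), beside 23.1%. Because the libraries differ by a general offset, the median ratio of 12840 genes with at least 100 reads, 0.954, is used as a further mark. Intervals lay above it for 4 members, beside 11.4% of genes, and below it for 2, beside 7.27%. The counts below these marks were near the background, and those above them rest on 2 and 4 genes.

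**Figure D5:**
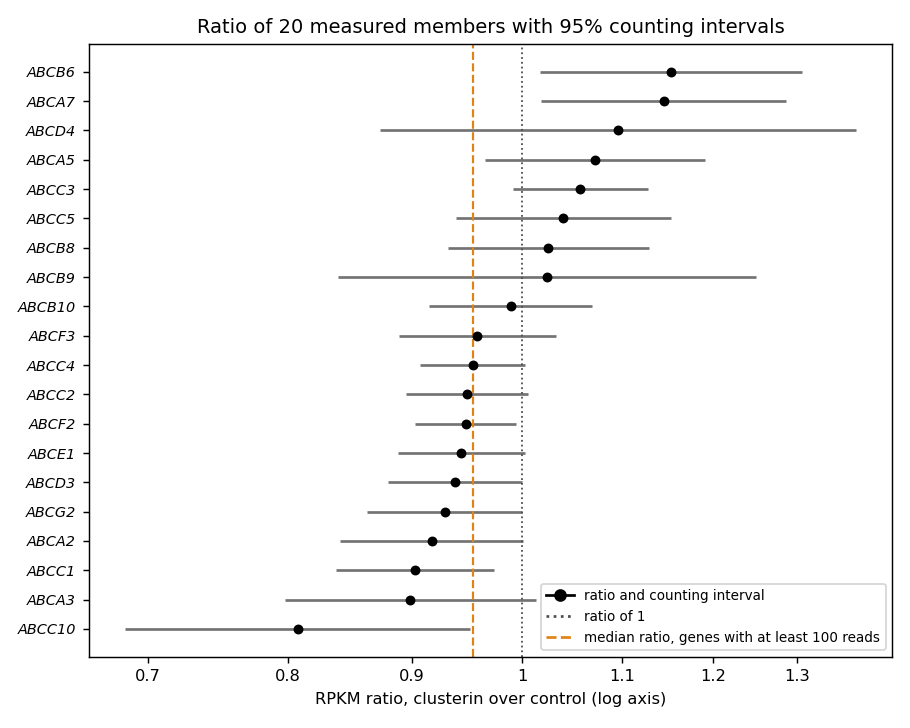
RPKM ratio of clusterin over control (log axis) for 20 measured members, with 95% Clopper-Pearson counting intervals as lines; the dotted line marks 1 and the dashed line the median ratio of genes with at least 100 reads, 0.954. ABCB6 and ABCA7 lie wholly above both lines, ABCC10 wholly below both, and all points lie between 0.808 and 1.15.

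The lowest ratio among measured members was that of ABCC10. It had 253 reads with clusterin and 361 in the control, a ratio of 0.808 (0.685 to 0.951) and a log2 difference of -0.19. Of 33 members above 0, 1 had a q below 0.05 in the authors' deposited table, beside 12% of all genes above 0 (10.4% lower and 1.63% higher with clusterin). Those q-values compare 2 libraries and not conditions. Just outside that threshold in the authors' deposited table were ABCC1, with a q of 0.0576, and ABCC10, with 0.0654. ABCC1 had 1228 reads with clusterin and 1567 in the control, and the interval of its ratio of 0.903 (0.837 to 0.974) included the all-gene median ratio.

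ABCB6 and ABCA7 were higher in the clusterin library, each with an interval above 1. Neither had a q below 0.05 in the authors' deposited table, and the intervals are not adjusted for the number of members. ABCB6 had 508 reads in each library, which at the unequal library totals is a ratio of 1.15 (1.02 to 1.31) and a log2 difference of 0.17. ABCA7 had 579 reads with clusterin and 583 in the control, a ratio of 1.14 (1.02 to 1.29) and a log2 difference of 0.14. ABCA5, with a ratio of 1.07 (0.965 to 1.19), and ABCC3, with 1.06 (0.992 to 1.13), lay above the all-gene median only. Of the most deeply read members, ABCF2 had 3026 reads with clusterin and 3680 in the control (ratio 0.948, 0.903 to 0.995) and ABCC4 had 2873 and 3471 in the same order (ratio 0.954, 0.908 to 1.003). Both lay at the general offset, as did ABCC2, ABCD3, ABCE1, ABCF3 and ABCG2, whose intervals held the median ratio.

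Within subfamilies A to D the members did not share a direction. In subfamily B, with a median log2 difference of 0.02, ABCB6 (0.17), ABCB8 (0.03) and ABCB9 (0.02) lay above 0 and ABCB10 at -0.01, or 0.05 with the all-gene median set to 0. Subfamily A had a median of -0.01, a sign that turned to 0.04 when the all-gene median was set to 0, with ABCA7 (0.14) and ABCA5 (0.07) above 0 and ABCA3 (-0.11) and ABCA2 (-0.10) below. Subfamily C had -0.07, from ABCC10 (-0.19) to ABCC3 (0.07). Subfamily D also had -0.07, with ABCD3 (-0.09) below 0 and ABCD4 (0.08) above. ABCE1 (-0.08), ABCF2 (-0.07), ABCF3 (-0.06, or 0.0081 with the all-gene median set to 0) and ABCG2 (-0.10) were all near the offset. The difference between subfamilies was not tested, since each group is 1 library. The order of levels was also stable, with 13 of the 22 measured members at the same rank in both libraries, counted over all 45, and ABCF2 first in both. Neighbours such as ABCD3 and ABCE1 exchanged places within their counting error.

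Genes that work with these transporters lay at the same offset, and none of their measured members was past 1.5-fold. Of 22 genes of sterol efflux and its regulation, 13 were measured, 10 of them below 0, with a median log2 difference of -0.08. SCARB1, the HDL receptor, stood at 45.6 RPKM with clusterin and 46.1 RPKM in the control, NPC2, a lysosomal cholesterol carrier, at 25.1 RPKM with clusterin and 26.8 RPKM in the control, and the largest differences were those of LPCAT3 (-0.17) and SREBF2 (-0.16). Of 19 partner genes of the ABCD members all were measured, 17 below 0, with a median of -0.07. Most were peroxisomal, but the list also held MMACHC and the gene of LMBD1, which handle cobalamin. SLC27A2, an acyl-CoA synthetase, and HSD17B4, of peroxisomal beta-oxidation, were the highest at a log2 difference of -0.08 and -0.0053, and MMACHC (-0.19) and the peroxin PEX13 (-0.15) differed most.

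All 18 iron-sulfur and heme genes were measured, 14 below 0, with a median of -0.08, led in level by the chaperone HSPA9 at 83.9 RPKM with clusterin and 87.9 RPKM in the control and by UROD at 29.7 RPKM with clusterin and 31.3 RPKM in the control. BOLA3 (-0.15) differed most among them. All 16 ribosome recycling and initiation genes were measured, 14 below 0, with a median of -0.06, or 0.0032 with the all-gene median set to 0. EIF2S3, the gamma subunit of eIF2, had the highest level, 148 RPKM with clusterin and 159 RPKM in the control, and EIF6 came next at a log2 difference of 0.04, while EIF2B5 (-0.15) and EIF2S1 (-0.14) differed most. Of 11 regulators of drug transporters, 9 were measured, 8 below 0, with a median of -0.05, or 0.013 with the all-gene median set to 0. YBX1 had 501 RPKM with clusterin and 520 RPKM in the control and HIF1A 61.1 RPKM with clusterin and 62.4 RPKM in the control, and NR1I3 (-0.10) was among those that differed most.

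Of 10 peptide-loading genes, 5 were measured, 4 of them below 0, with a median of -0.05, or 0.017 after quantile normalization. TAP1, TAP2 and TAPBP, which were not measured, lie within 3 Mb of ABCF1 in the stretch where few genes were. Their low listed levels are therefore not read as low expression. B2M stood at 476 RPKM with clusterin and 479 RPKM in the control and CALR at 329 RPKM with clusterin and 347 RPKM in the control, and CANX (-0.10) and CALR (-0.07) differed most. TAP1 had a ratio of 0.819 (0.660 to 1.01). CFTR, the chloride channel, had 5 reads with clusterin and 1 in the control, a ratio of 5.76 (0.645 to 273). Neither KCNJ8 nor KCNJ11, the potassium channel partners of ABCC8 and ABCC9, was measured. Among measured genes, a q below 0.05 in the authors' deposited table was held by 2 sterol, 2 peroxisomal, 1 iron-sulfur, 3 ribosome, 1 regulator and 2 peptide-loading genes, beside 16.6% of all measured genes. All of these were lower with clusterin, as were 2141 of the 2478 such calls over all genes above 0.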

How the data were processed

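RNA of the clusterin and the control library, grouped by their labels, was enriched on oligo(dT) beads and copied with random hexamers, per the labels' protocols. Bowtie, TopHat and Cuffdiff with build hg19 are named in the submitters' processing notes; versions and strand setting are not given in the sources used here. Each gene's level in each library is taken as RPKM, which the authors scaled by transcript length and library total; the header names no unit, and this one was read from the values. The authors also deposited a log2 fold of clusterin over control, a p-value and an adjusted q-value for each gene.

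For 476 of 518 small RNA genes, level times gene length gave whole numbers within 0.02 at a fixed library total, and the Audic-Claverie formula matched the deposited p of 453 of them within 0.01%. For every other gene above 0, lengths from 150 to 40000 bases were tried, and the length was kept at which both levels became whole reads with a matching p. This worked for 19298 of 20642 genes (93.5%). Whole numbers cannot tell reads from read pairs. On data simulated near the members' levels, with a floor under the expected reads, reads came back for 98.8% of 500 genes, all exact. The simulated p-values came from the same formula and library totals as the recovery, so this did not check either of them. The simulated lengths were shorter than those recovered for ABCF1 and TAP1, so recovery at such lengths was not tested.

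The start or the end of 40 of 45 members lay within 2000 bases of RefSeq on GRCh38, although the notes name hg19. Gene coordinates are printed only for those, and a match at 1 end was enough. Architecture and location of the members follow textbook knowledge. Members are named, and of each partner list the 2 highest in level and the 2 with the largest difference; the values of some genes are not reported here, though counts, medians and sums include them. The members, lists and rules were chosen with earlier results of these data known. Log2 differences use a pseudocount of 1 RPKM and a filter at a mean of 1 RPKM; the fold threshold was 1.5. Ratio intervals (95%, exact Clopper-Pearson) cover counting error only, because duplicates of 1 molecule cannot be recognised. Genes at 0 in both libraries have a deposited p and q of 0 and were left out of every count of calls. Alternatives were other pseudocounts, filters and scalings. No protein sequences were used. Python 3.11.15 and scipy 1.17.1 were used.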

Additional observations from a re-analysis of the deposited data

How the results depend on the processing

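The median log2 difference of the members stayed below 0 under every alternative run, from -0.07 with a mean of at least 5 RPKM or a pseudocount of 0.1 to -0.0015 with the all-gene median set to 0. That scaling, which removes the all-gene median of -0.06 and shifts low genes less on this scale, turned ABCB10 (0.05), ABCC4 (0.0019) and ABCF3 (0.0081) above 0, and quantile normalization turned ABCB10 (0.04). Subfamily A then had 0.04 and 0.05 under these scalings, and subfamily B fell to -0.01 with a mean of at least 5 RPKM, where A and D had too few members. None of the members passed 1.5-fold under any alternative. With a mean of at least 5 RPKM, 13 members were measured. At a deposited q below 0.01, 0 members were called.

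With the all-gene median set to 0, the median of the regulators was 0.013 and that of the ribosome list 0.0032. After quantile normalization they were -0.0031 and -0.0048, and peptide loading had 0.017. Without its highest member, the summed level with clusterin and in the control was 7.58 and 7.42 RPKM for A, 21.9 and 21.1 for B, 33.2 and 34.1 for C, 8.14 and 8.41 for D, 15.4 and 16.0 for F, and 0.184 and 0.0943 for G. Dropping the 3 members with the most reads, and counting folds without a pseudocount, were chosen after seeing the data. No paired analysis was possible because each group is 1 library; for the same reason none could be left out. The protein features planned were not run. Under 100 reads, a ratio is known only within wide counting intervals.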

Other observations

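The pseudogene row ABCA11P, left out by the rule, stood further apart than any measured member. It was at 1.3 RPKM with clusterin and 2.10 RPKM in the control, from 82 reads with clusterin and 152 in the control, a ratio of 0.622 (0.469 to 0.819) and a log2 difference of -0.43. In the authors' deposited table its q was 0.00736. This row was picked for its values.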
